A study of Sus scrofa with 48 samples.

Results

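The arm choice of 16 microRNA (miRNA) hairpins was described in boar seminal plasma extracellular vesicles (SPEVs), the membrane vesicles that glands and ducts of the male tract release into semen. The miRNA count file held 345 mature miRNAs, of which 344 had reads, and 83 hairpins had a row for each arm. The 16 hairpins, with 32 arm rows, were those left after hairpins of let-7 and of a fixed list of other miRNA numbers had been set aside. The rule uses names and no measured value, but it was set with earlier results of these data known. They were miR-7, miR-33b, miR-186, miR-296, miR-532, miR-545, miR-574, miR-582, miR-628, miR-671, miR-676, miR-708, miR-769, miR-885, miR-1271 and miR-1306. Small RNA of SPEVs had been sequenced from 12 Yorkshire boars of high sperm motility (H) and 12 of low sperm motility (L), 1 library per boar. Yorkshire is the breed in the sample labels, and the paper calls the animals large white. All boars were healthy and sexually mature, and both groups came from the same boar station. Each library had 4189358 to 9842872 miRNA reads, and the 32 arms took 24436 to 60520 of them, or 0.654% ± 0.121 (SD, n = 12) in H and 0.640% ± 0.140 (SD, n = 12) in L.

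A miRNA is cut from a folded precursor, the hairpin, whose stem yields a short duplex of a 5p strand and a 3p strand. An Argonaute protein usually keeps one strand of the duplex, often the one whose 5′ end is less firmly paired or starts with U or A, and the other strand is degraded. The kept strand finds target mRNAs mainly through its seed, bases 2 to 8, so a change of arm is a change of targets. Some hairpins keep both strands. The measure used here was the 5p share, the reads of the 5p row as a percentage of the reads of both rows in a library, counted where a hairpin had at least 10 reads. It describes the reads found in vesicles, and the strand kept in the cells that released them was not measured.

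The mature sequences below are those of the arms on which the results turn, with the seed in capitals. They were read from the RefSeq annotation of Sscrofa11.1 (release 106), which held a locus for 15 of the 16 hairpins and both arms for 9 of 16. The first set, from miR-186 to miR-676, holds the main arms of hairpins read mostly from one side, and the second set both arms of hairpins that were read from both sides.
miR-186-5p: cAAAGAAUucuccuuuugggcuu
miR-1306-5p: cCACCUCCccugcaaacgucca
miR-769-5p: uGAGACCUcuggguucugagc
miR-532-5p: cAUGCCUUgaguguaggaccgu
miR-7-5p: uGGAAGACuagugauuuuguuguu
miR-574-3p: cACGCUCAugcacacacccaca
miR-676-3p: cCGUCCUAagguuguugaguu
miR-296-5p: gAGGGCCCcccccaauccugu
miR-296-3p: aGGGUUGGgcggaggcuuucc
miR-545-5p: uCAGUAAAuguuuauuggaug
miR-545-3p: aUCAACAAacauuuauugugug
miR-671-5p: aGGAAGCCcuggaggggcuggagg
miR-671-3p: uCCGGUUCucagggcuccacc
The seed of miR-708-5p was shared with miR-28-5p and that of miR-186-5p with miR-9790-3p. No other annotated member arm shared its seed with another miRNA of this annotation, and miRNAs that it does not hold were not compared.

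The hairpins themselves lay mostly in introns. MIR186 (chr6:141943328-141943409, plus strand) lay in an intron of ZRANB2, MIR628 (chr1:116476859-116476938, plus) in one of CCPG1, MIR582 (chr16:38580344-38580420, minus) in one of PDE4D and MIR676-1 (chrX:56083372-56083451, plus) in one of EDA. MIR1306 (chr14:51473918-51473997, plus) overlapped an exon of DGCR8, whose protein helps to cut hairpins from their primary transcripts. MIR296 (chr17:58970316-58970392, minus), MIR671 (chr18:5989378-5989457, minus) and MIR532 (chrX:43705258-43705337, plus) had no annotated gene around them. The miR-7 row could come from more than one locus, since MIR7-1 (chr1:191218565-191218648, minus) and MIR7-2 (chr10:30986180-30986288, plus, in an intron of HNRNPK) hold the same 5p sequence, which occurs 3 times in the genome. The 5p row of miR-7 may therefore sum several hairpins, and no 3p arm of miR-7 is annotated there.

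The whole hairpins of miR-545, miR-296, miR-574 and miR-1271 are shown, with annotated arms in capitals, because their layout bears on how their arms can be counted. The miR-545 and miR-296 hairpins had both arms annotated and were read from both. The miR-574 hairpin has a UG repeat of 12 bases on its 5p side, and its first 40 bases hold 13 UG dinucleotides. Of miR-1271 the annotation holds the 3p arm alone.
MIR545 (chrX:59602710-59602788, minus): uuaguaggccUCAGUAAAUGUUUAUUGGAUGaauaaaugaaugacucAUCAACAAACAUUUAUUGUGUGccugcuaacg
MIR296 (chr17:58970316-58970392, minus): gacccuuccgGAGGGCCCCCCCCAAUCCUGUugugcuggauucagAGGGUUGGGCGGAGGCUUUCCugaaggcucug
MIR574 (chr8:30192280-30192359, plus): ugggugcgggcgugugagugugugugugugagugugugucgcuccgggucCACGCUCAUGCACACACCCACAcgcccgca
MIR1271 (chr2:81502823-81502900, minus): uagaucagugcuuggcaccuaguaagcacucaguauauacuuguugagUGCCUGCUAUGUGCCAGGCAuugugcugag
The authors removed reads that matched repeats before they counted miRNAs, and the part of that step in the low 5p counts of miR-574 was not tested. The miR-1271-3p sequence occurs 13 times in the genome and the miR-545-5p sequence 4 times, and how reads were divided among such copies is not given in the sources used here.

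Of the 16 hairpins, 15 had at least 10 reads in at least 6 libraries of each group. The exception, miR-885, had 48 reads of 5p and 28 of 3p over all 24 libraries and reached 10 reads in 2 libraries, so no mean share is given for it. The mean 5p share was above 50% in 9 of the 15 hairpins, and the same arm led in every counted library in 9 of 15. Among the 58 other hairpins with enough reads these counts were 34 and 46. The minor arm held a median of 8.26% in the 15 hairpins and 8.48% in the 58 others.

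A group of 4 hairpins was read almost wholly from the 5p arm. miR-186, the most abundant of the set, had a 5p share of 99.8% ± 0.0997 (SD, n = 24), with 2143 CPM (counts relative to all miRNA reads of the library, scaled by TMM) of 5p and 3.77 CPM of 3p. miR-1271 had 99.9% ± 0.293 (SD, n = 24), and its 3p arm had 0 reads in 18 of 24 libraries, which allows a 3p share of up to 0.199% to 0.86% in those libraries at a limit of 3 reads. The arm that the annotation holds for miR-1271 was thus the one hardly read. miR-1306 had a 5p share of 98.4% ± 0.868 (SD, n = 24) with 1165 CPM of 5p, and its libraries ran from 96.4% to 99.4%. miR-769 had 97.2% ± 1.38 (SD, n = 24), from 93.9% to 99.4%.

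A further 3 hairpins favoured the 5p arm with a larger minor part. miR-532, which many mammals carry in an X-linked cluster with miR-188, had a 5p share of 89.8% ± 1.77 (SD, n = 24) and stayed between 87.1% and 93.4%. Its arms stood at 742 CPM (5p) and 82.2 CPM (3p). miR-7, known for its high level in neurons and in endocrine cells of the pancreas, had a share of 91.7% ± 5.29 (SD, n = 24), from 80.3% to 98.5%. miR-708 had 92.9% ± 8.47 (SD, n = 24), but on 17 to 198 reads per library. Its 3p arm had 0 reads in 9 of 24 libraries, which allows 3p shares of up to 3.16% to 17.6% there.

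The 3p arm held nearly all reads of 2 hairpins. The 5p share of miR-676 was 0.143% ± 0.138 (SD, n = 24), with 438 CPM of 3p and at most 10 reads of 5p in a library. Its 5p arm had 0 reads in 4 libraries, which allows up to 0.0795% to 0.174%. The 5p share of miR-574 was 1.08% ± 0.678 (SD, n = 24), from 0.0851% in H1 to 2.99% in L7, with 612 CPM of 3p.

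**Figure D1:**
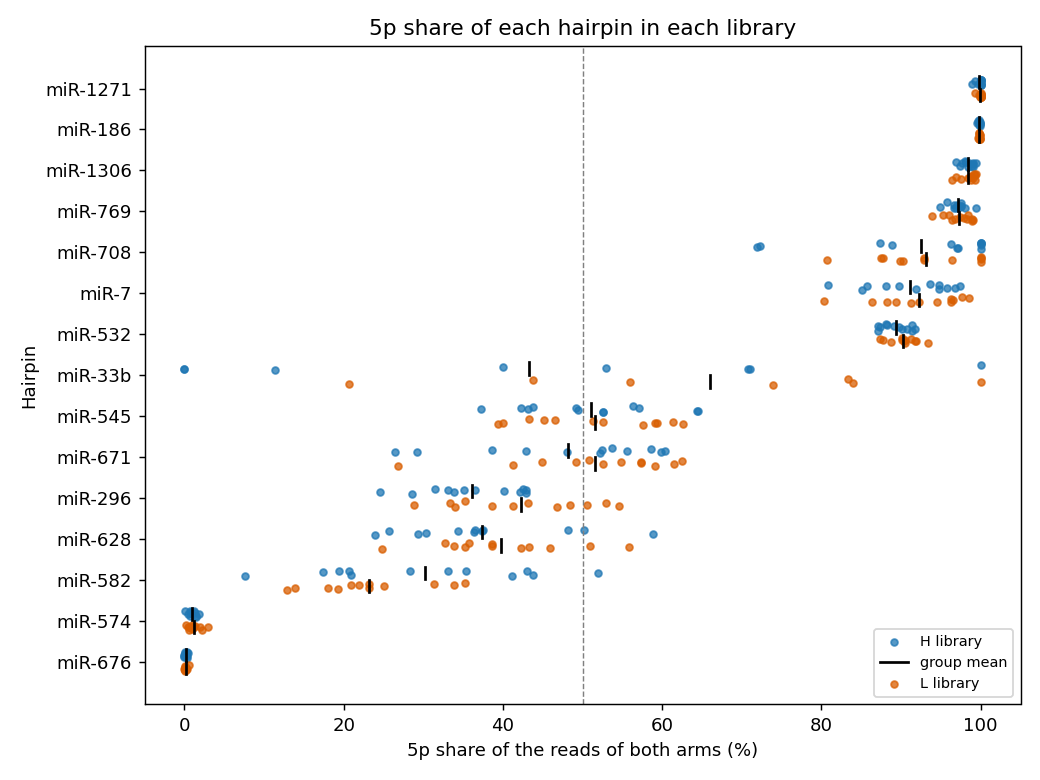
The 5p share of 15 hairpins (x axis, percent of the reads of both arms) in each library with at least 10 reads, with H in blue, L in orange, black bars for group means and a dashed line at 50%. Hairpins are ordered by mean share, from miR-676 at 0.143% to miR-1271 at 99.9%, and the H and L points overlap for every hairpin.

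The remaining 6 hairpins were balanced, with a mean 5p share between 25% and 75%, against 10 of 58 among the other hairpins. miR-671 was closest to equal use, at 49.8% ± 10.7 (SD, n = 24) and 41.5 CPM of 5p beside 40.6 CPM of 3p. The 5p arm led in 15 libraries and the 3p arm in 9, and the lowest 3 were H11 (26.5%), L9 (26.9%) and H9 (29.2%). miR-545 had 51.3% ± 8.37 (SD, n = 24), and its 5p arm led in 13 libraries and its 3p arm in 11. For these 2 hairpins the leading arm was not the same in all libraries of either group. Reads drawn at random from one common share would alone give an SD (the counting SD) of 4.69 points for miR-545 and 2.30 for miR-671. With means so close to equal use, counting error can thus switch the leading arm: H8 had 40 reads of miR-545-5p and 41 of miR-545-3p.

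miR-296, miR-628 and miR-582 leaned to the 3p arm. miR-296 had a 5p share of 39.2% ± 7.86 (SD, n = 24), and the 3p arm led in 21 of 24 libraries. miR-628 had 38.6% ± 9.34 (SD, n = 24), and the 3p arm led in 20 of 24. This was the most abundant balanced hairpin, with 121 CPM of 5p and 198 CPM of 3p. miR-582 had 26.7% ± 11.05 (SD, n = 24), from 7.62% in H1 to 51.9% in H12, the single library in which its 5p arm led. miR-33b, which in many mammals lies in an intron of the lipid regulator gene SREBF1, had 53.8% ± 33.8 (SD, n = 15) on at most 44 reads per library, and its shares covered the whole range from 0% to 100%. The leading arm of miR-33b changed between libraries: 5p led in 9 of the 15 and 3p in 6. H12 had 0 reads of 5p and 35 of 3p, while L5 had 21 and 4. The SD was 3.07 times the counting SD, and the cause of this spread was not tested. No single leading arm is therefore given for miR-33b.

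For each of the 15 hairpins the shares varied more between libraries than reads drawn at random from one common share would, with a median ratio of the SD to the counting SD of 3.83 (3.58 for the 58 other hairpins). The counting SD covers counting error only, since PCR copies one molecule into many reads, and no source used here says that molecular identifiers were collapsed. The ratio was lowest for miR-545 at 1.78 and miR-676 at 1.89. It was highest for miR-628 at 8.19, where 929 to 3286 reads per library give a counting SD of 1.14 percentage points against an SD of 9.34. miR-7 followed at 7.23 and miR-1306 at 5.79.

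**Figure D2:**
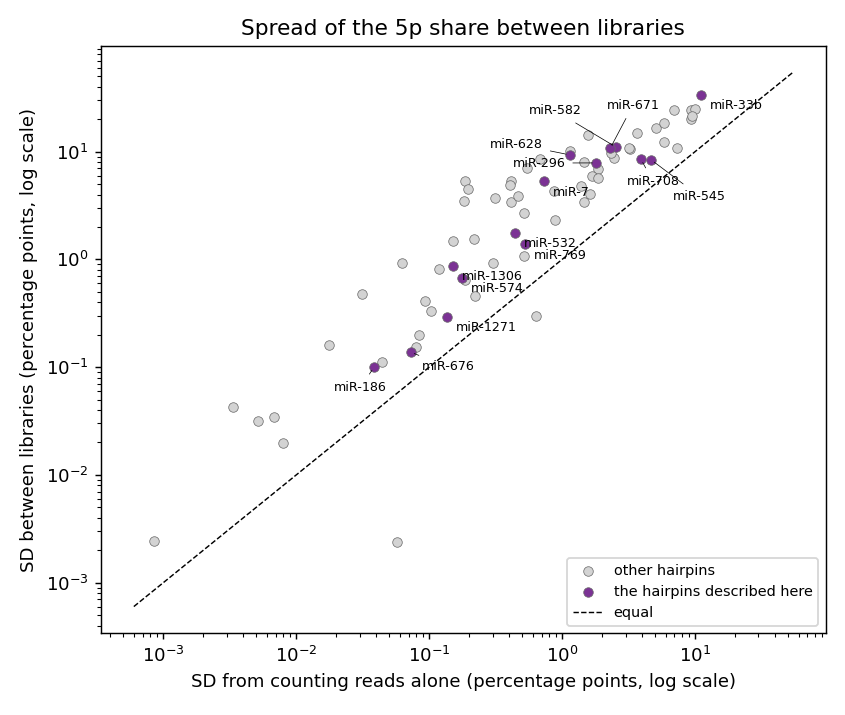
The SD of the 5p share between libraries (y axis, percentage points, log scale) against the SD that counting reads alone would give (x axis, percentage points, log scale) for the hairpins tested, with the hairpins described here in purple, other hairpins in grey and a dashed line of equality. All 15 purple points lie above the line, miR-628 by a factor of 8.19 and miR-545 by 1.78.

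Before the groups were compared, the libraries were checked against marker miRNAs. The summed level of 6 leukocyte miRNAs was 9633 CPM in L12 and 3895 CPM in L8, against 144 CPM at most in the other 22 libraries. The epithelial list, with 4 of 6 miRNAs present, summed to 62430 to 85500 CPM in H and 64680 to 96950 CPM in L. The erythrocyte list stayed at 8.78 CPM or less. The muscle list, with 4 of 4 miRNAs present, had a median of 5.11 CPM in H (1.43 to 16.4) and 1.28 CPM in L (0 to 4.59). The testis and germ cell list, with 1 of 3 present (miR-34c), had a median of 78.9 CPM in H (32.1 to 135) and 61.3 CPM in L (9.81 to 196). The part of these levels in the results was not tested. Results that rest on L8 and L12 are given with and without these libraries.

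Arm choice did not differ detectably between boars of high and low sperm motility. By a two-sided permutation test with 100000 resamples and Benjamini-Hochberg adjustment over all hairpins tested, 0 of the 15 hairpins differed (background 0.0%, 0 of 73). At an unadjusted p under 0.05 the counts were 0 of 15 and 2 of 73, and by edgeR's diffSpliceDGE, which compares arms within a hairpin, 0 of 16 and 6 of 83 at the same unadjusted level. The H and L ranges overlapped for all 15, as they did for all 73 hairpins tested. Without L8 and L12, 0 were called, among the 15 as among all hairpins tested. In the fit without L8 and L12 the smallest p of the 15 was that of miR-532, whose difference rose from 0.957 to 1.52 points (permutation p = 0.0343, adjusted p = 0.834). The mean share was higher in L for 14 of 15 hairpins, by a median of 0.48 points over the 15, and for 22 of the 58 others, with a median of -0.14.

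Over all 24 libraries miR-296 had the smallest p of the 15. In H its 5p share ran from 24.6% over a median of 35.8% to 42.9%, and in L from 28.8% over 42.2% to 54.6%. The upper part of the L range lay above all H libraries, and the lower part lay among them. The means were 36.2% ± 6.11 (SD, n = 12) in H and 42.3% ± 8.44 (SD, n = 12) in L, a difference of 6.16 points with a standard error of 3.01 (permutation p = 0.0532, adjusted p = 0.929). The unadjusted p was under 0.05 in 9 of 24 fits with one library left out (without H4, H7, H10, H11, H12, L1, L4, L9 or L11, lowest permutation p = 0.0189 without L9), and it was 0.13 without L8 and L12. The arms carry the seeds AGGGCCC (5p) and GGGUUGG (3p).

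miR-582 was the one hairpin with a lower mean in L. Its 5p share in H ran from 7.62% over 30.7% to 51.9% and in L from 12.9% over 22.5% to 35.2%. The means were 30.2% ± 13.3 (SD, n = 12) and 23.2% ± 7.18 (SD, n = 12), a difference of -7.01 points with a standard error of 4.36 (permutation p = 0.122, adjusted p = 0.929). Without H1 the difference was -9.06 points, with an unadjusted permutation p of 0.0366. The highest 4 libraries, H12, H7, H11 and H8, were all H, and the lowest, H1, was H as well.

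The standard error of the difference varied widely among the hairpins. The difference L minus H was 0.0095 points with a standard error of 0.0416 for miR-186, 0.087 with 0.362 for miR-1306, 0.178 with 0.574 for miR-769 and 0.957 with 0.712 for miR-532. It was 1.12 with 2.19 for miR-7 and 0.616 with 3.53 for miR-708, which also favoured the 5p arm. The difference of miR-7 ran from 0.175 (without H7) to 2.21 (without L8) with one library left out, and it was 2.92 points without L8 and L12. Among the balanced hairpins it was 0.479 with 3.49 for miR-545, 3.37 with 4.42 for miR-671 and 2.42 with 3.86 for miR-628. With one library left out these ran from 1.40 (without H11) to 5.61 (without L9) for miR-671 and from 0.963 (without L8) to 4.37 (without H10) for miR-628. The difference of miR-33b, 22.7 points with a standard error of 16.7 over 8 H and 7 L libraries, had a permutation p of 0.208. It was 5.83 points when libraries with at least 1 read were counted, and it ran from 16.5 (without H11) to 30.8 (without H2) with one library left out.

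**Figure D3:**
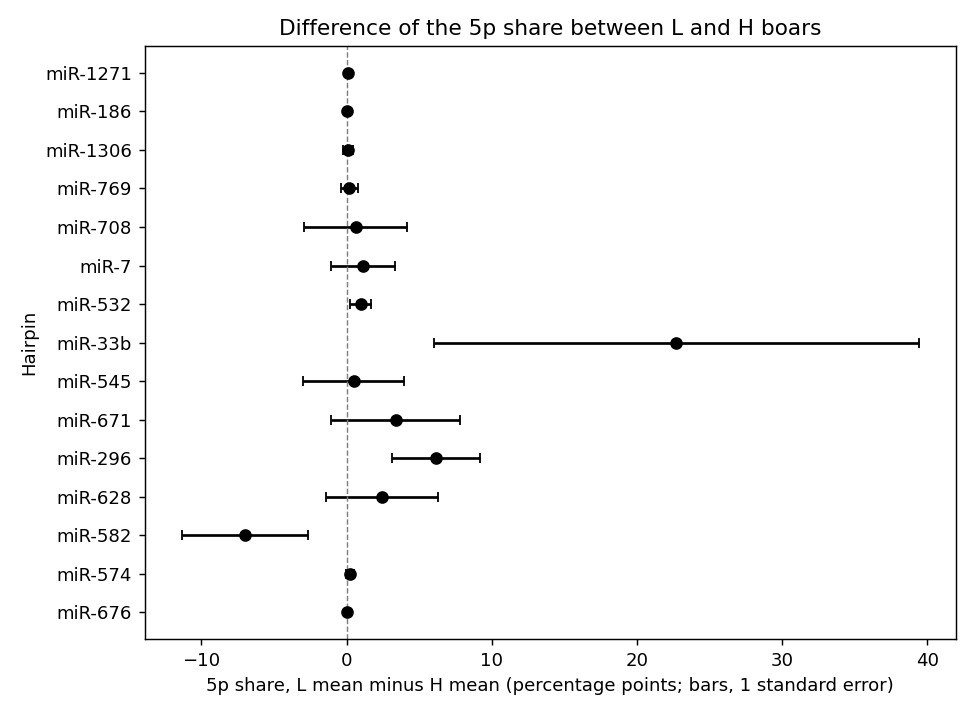
The difference of the mean 5p share, L minus H (x axis, percentage points), of 15 hairpins, with points for the difference and bars for 1 standard error. The points of 14 hairpins lie above 0 and miR-582 lies at -7.01, and 0 of the 15 had an adjusted p under 0.05.

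The levels of the arms did not pass the test between the groups either. By edgeR's quasi-likelihood test with the study's limits, an unadjusted p under 0.05 together with a fold of 1.5 or more, or of 0.67 or less, 0 of the 32 arms were called, against 36 of 344 miRNAs (10.5%), of which 1 had an adjusted p under 0.05. At an unadjusted p under 0.05 alone the counts were 0 of 32 arms and 46 of 344 miRNAs. DESeq2 with the same limits called 1 of the 32 arms, miR-582-5p. The log2 fold change of L over H had a median of -0.06 over the 32 arms and of 0.08 over the 344 miRNAs. Fewer vesicles of one source and less of a miRNA per vesicle cannot be told apart in these levels.

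miR-582-5p had the largest fitted change among arms with a mean above 10 CPM. Its level was 21.3 CPM ± 14.6 (SD, n = 12) in H and 13.2 CPM ± 6.93 (SD, n = 12) in L, a log2 fold change of -0.69 with a standard error of 0.36 (edgeR adjusted p = 0.444). The partner arm miR-582-3p stood at 44.8 CPM ± 15.3 (SD, n = 12) and 44.3 CPM ± 20.7 (SD, n = 12), a log2 fold change of -0.02. The call of miR-582-5p turned on single libraries: it passed the limits without H1, H3, H5, L9, L10 or L11, each left out alone, with unadjusted p-values of 0.025 to 0.0423. miR-296-5p was the nearest on the other side, at 43.9 CPM ± 13.1 (SD, n = 12) in H and 55.6 CPM ± 17.2 (SD, n = 12) in L, a log2 fold change of 0.34 with a standard error of 0.19 (edgeR adjusted p = 0.4999), while miR-296-3p had a log2 fold change of -0.04.

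If the arms of a hairpin come from one precursor, their levels may rise and fall together. This was examined over the 24 libraries on log2 CPM for the 11 hairpins whose minor arm had at least 10 reads on average. Pearson's r was above 0 in 10 of 11 and had a median of 0.42, beside 0.27 over all 50 hairpins tested. By a two-sided permutation test with Benjamini-Hochberg adjustment, 5 of 11 were correlated (background 36.0%, 18 of 50). Levels in one library share its scaling: on library totals without TMM factors miR-186, miR-296 and miR-671 also passed, at r of 0.64, 0.68 and 0.59, and miR-574 no longer did, at 0.41. miR-296 also passed, narrowly, without H3 (r = 0.49, permutation adjusted p = 0.0499).

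The arms of miR-545 had r = 0.70 (permutation adjusted p = 0.00263) and Spearman's rho = 0.56 (adjusted p = 0.0247), and r was 0.71 within H and 0.71 within L. Without the 2 libraries farthest from the median of the 5p arm, L2 and L12, r was 0.58. miR-532 had r = 0.69 (permutation adjusted p = 0.00263) and rho = 0.54 (adjusted p = 0.0311), with 0.59 within H and 0.78 within L. Its r was 0.42 without L6 and L12, and 0.57 without L8 and L12. miR-574 had r = 0.60 (permutation adjusted p = 0.00944) and rho = 0.65 (adjusted p = 0.00833), with 0.73 within H and 0.50 within L, and it was 0.66 without H1 and L6.

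For the other 2 the relation was less firm. miR-769 had r = 0.56 (permutation adjusted p = 0.0169) and rho = 0.53 (adjusted p = 0.0332), with 0.46 within H and 0.61 within L. It was 0.35 without L11 and L12 and lost its call without L12 alone, at 0.40. miR-582 had r = 0.48 (permutation adjusted p = 0.0485) but rho = 0.35 (adjusted p = 0.18), with 0.33 within H and 0.69 within L. It was 0.47 without H1 and H11, and its call was lost in 15 of the 24 fits with one library left out, at an r between 0.37 (without L12) and 0.49 (without L2). Of the 4 other settings run, the call of miR-582 held in 1. Without L8 and L12 together 3 of the 11 hairpins were called, miR-532, miR-545 and miR-574, and 11 of the 50.

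In miR-7 the arms had a negative r of -0.28 (permutation adjusted p = 0.268, rho = -0.29, adjusted p = 0.254), with -0.53 within H and -0.14 within L. The r was 0.37 in miR-628 and 0.19 in miR-671, with permutation adjusted p-values of 0.16 and 0.446. Over the 5 balanced hairpins tested, r thus ran from 0.19 in miR-671 over 0.37 in miR-628, 0.42 in miR-296 and 0.48 in miR-582 to 0.70 in miR-545, and the differences between these values were not tested.

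**Figure D4:**
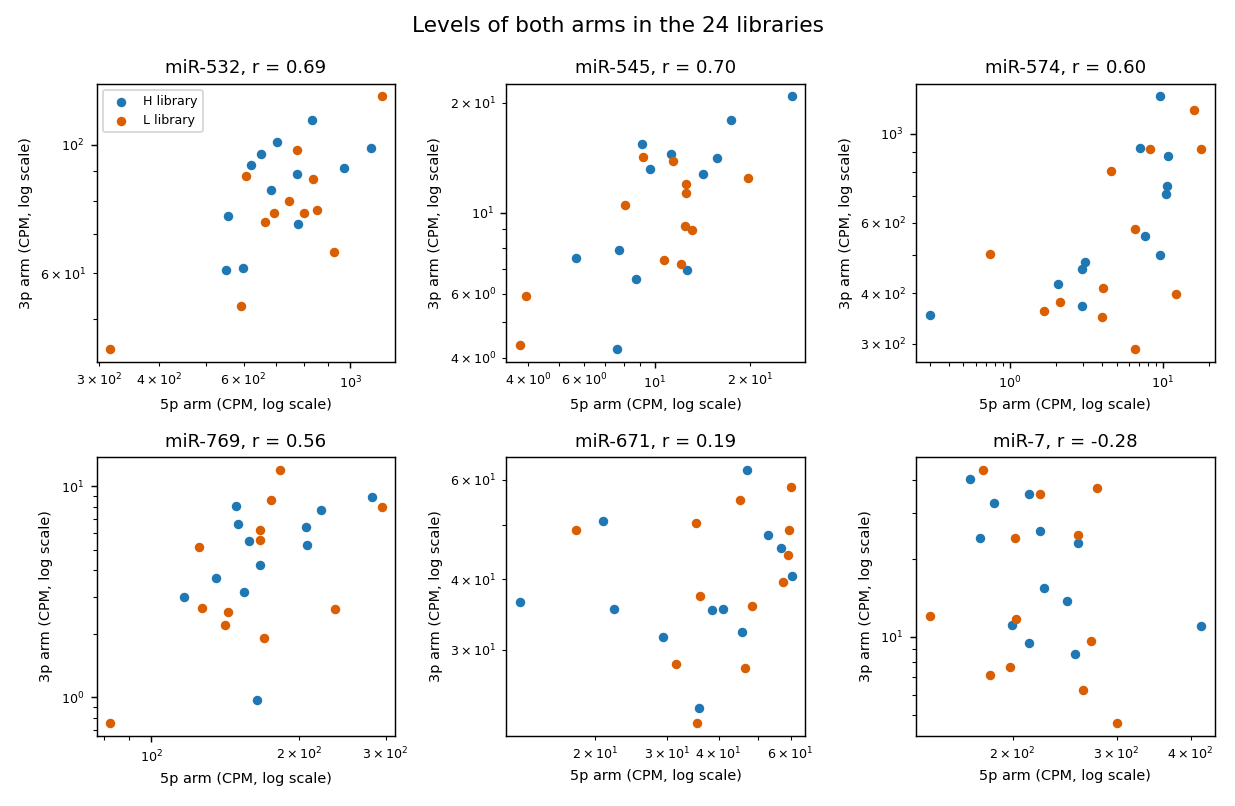
Level of the 5p arm (x axis, CPM, log scale) against that of the 3p arm (y axis, CPM, log scale) for 6 hairpins in 24 libraries, with H in blue and L in orange and Pearson's r of log2 CPM in each title. Points of miR-532, miR-545, miR-574 and miR-769 rise together (r from 0.56 to 0.70), those of miR-671 are scattered (0.19), and those of miR-7 lie in an upper and a lower band of 3p level (-0.28).

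The spread of miR-7 lay in its 3p arm. In H, miR-7-3p was at 8.60 to 15.4 CPM in libraries 1 to 6 and at 23.0 to 40.3 CPM in libraries 7 to 12. In L it was at 6.25 to 12.1 CPM in libraries 1 to 6, and in libraries 7 to 12 it ran from 4.67 CPM in L7 to 43.7 CPM in L8. The mean 5p share was 95.5% and 95.6% in libraries 1 to 6 of H and L, and 86.9% and 89.0% in libraries 7 to 12. L7, at 98.5%, was the exception among the later numbers. miR-7-5p had no such step, at 145 to 417 CPM in libraries 1 to 6 and 170 to 301 CPM in 7 to 12. These sets were read off the library numbers after the values had been seen, so no test is given. The labels name no run, batch or day, and whether the numbers mark one was not tested.

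In H the 5p share of miR-582 also differed between these sets. It averaged 19.1% in H1 to H6, with 7.62% to 28.4%, and 41.4% in H7 to H12, with 33.1% to 51.9%. In L the averages were 20.01% and 26.4%, and the ranges overlapped. The H and L means were thus close in libraries 1 to 6, and H was higher in libraries 7 to 12. For miR-296 the means of H and L were 33.6% and 42.8% in libraries 1 to 6 and 38.7% and 41.9% in libraries 7 to 12, so L was higher in each set. The mean 5p share of miR-1306 was 98.9% in H1 to H6 and 97.9% in H7 to H12, and 99.1% and 97.9% in the same sets of L. That of miR-671 was 53.9% and 42.4% in H, and 54.6% and 48.4% in L. The ranges of these sets overlapped for miR-1306 and miR-671 in both groups.

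**Figure D5:**
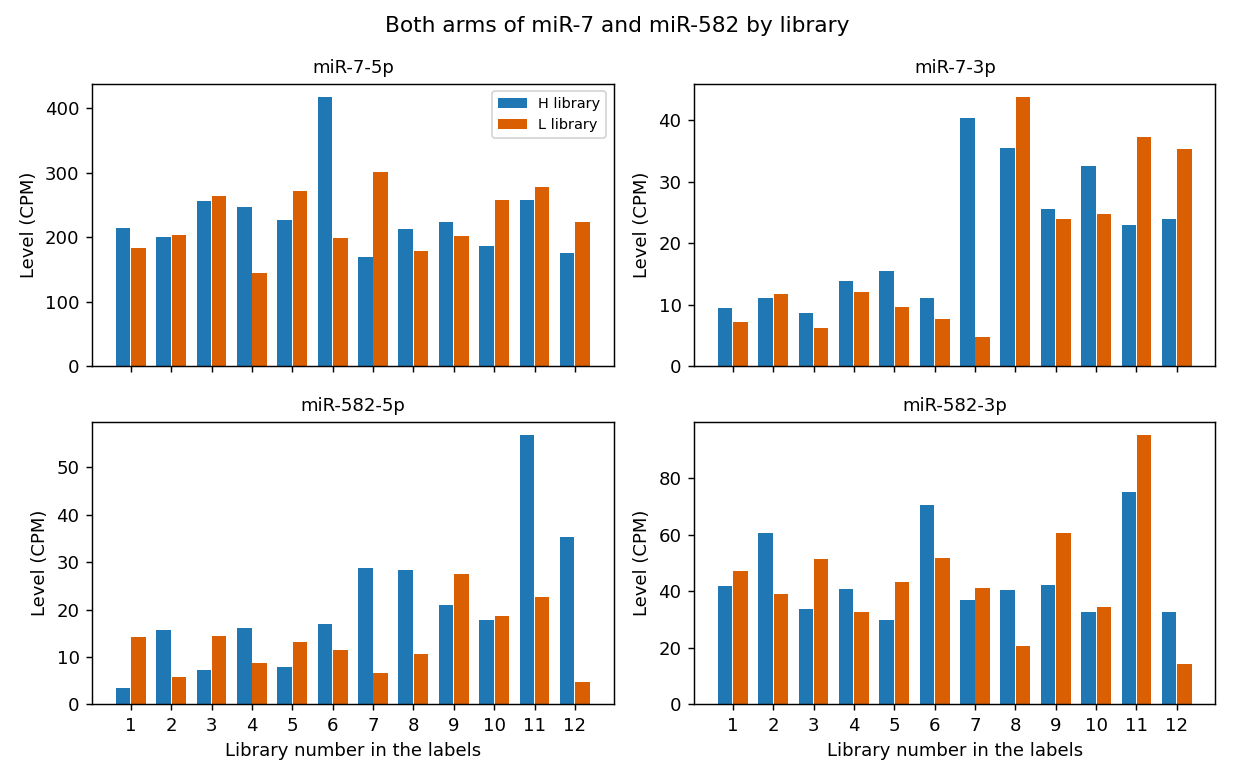
Levels of both arms (y axis, CPM, from 0) of miR-7 (top) and miR-582 (bottom) by library number (x axis), with H in blue and L in orange. miR-7-3p is at 15.4 CPM or less in libraries 1 to 6 and at 23.0 CPM or more in libraries 7 to 12 except L7, while miR-7-5p has no such step.

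The bases at the arm ends were compared for hairpins with both arms annotated and enough reads, 8 of the hairpins here and 43 others. The preferred arm, that with the larger mean share, started with U or A in 5 of 8 and in 34 of 43. The other arm did so in 3 of 8 and in 24 of 43. Among the first 4 bases the preferred arm had more A or U than its partner in 2 of 8, the same number in 2 and fewer in 4, and these counts were 19, 12 and 12 of 43. In 3 of the 8 (miR-296, miR-545 and miR-671) the use of the arms was balanced, and the preferred arm of miR-671 is the 3p arm by its mean share and the 5p arm by pooled reads. Over the 5 with a mean 5p share above 75% or under 25%, the preferred arm started with U or A in 2, beside 28 of 36 others. It had more A or U in 2, the same number in 1 and fewer in 2, beside 16, 11 and 9 of 36. With so few hairpins these shares are a description, and no test was made.

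miR-1306 and miR-676 illustrate the cases that run against the textbook tendency. The preferred miR-1306-5p starts with C and has 1 A or U in its first 4 bases, and the nearly unread miR-1306-3p starts with A and has 2. The preferred miR-676-3p starts with C and has 1, against 2 in miR-676-5p. miR-769-5p and miR-532-5p go the other way, each with 2 against 1, and miR-769-5p starts with U. In the balanced miR-296 both arms have 1 A or U in the first 4 bases, while in miR-671 the arms have 2 (5p) and 1 (3p) and in miR-545 2 (5p) and 3 (3p). In the 6 hairpins with one annotated arm, that arm was the preferred one in 4, miR-7, miR-186, miR-574 and miR-582, and the minor one in miR-628 and miR-1271.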

How the data were processed

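Small RNA libraries were made with a QIAseq miRNA kit. The authors deposited one table of whole-number counts per mature miRNA and library, without normalization. Per the paper's methods and the labels, reads were trimmed with cutadapt, aligned with Bowtie to remove other RNA classes and repeats, and assigned with miRDeep2 and miRBase, so reads shared by identical arms and any repeat-like arm may be miscounted. Precision follows the 4189358 to 9842872 miRNA reads per library, and 3 reads correspond to 0.305 to 0.716 CPM on library totals, before TMM scaling.

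Groups and numbers came from the titles. The 5p share was compared by two-sided permutation tests (100000 resamples) in Python 3.11.15 with NumPy 2.4.6, over hairpins with at least 10 reads in at least 6 libraries per group. Levels were compared with edgeR 4.0.16 (R 4.3.3, TMM, quasi-likelihood test, no filter), and DESeq2 1.42.0 was an alternative. Log2 CPM used a prior count of 0.5. All adjustments were over the whole file. P-values of the group comparisons rest on the spread between libraries. With 1 library per boar, differences between animals and between library preparations cannot be told apart in it. P-values of the correlations refer to how both arms vary together over the libraries. The scripts were tested on simulated data.

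The hairpins and lists were chosen with earlier results of these data known. Named hairpins were those called, the 10 most abundant, those with a mean share of 25% to 75%, the 5 with the largest SD and the 3 with the lowest minor arm. Same-numbered H and L libraries were checked for pairing over 211 miRNAs: r ran from -0.47 to 0.54, 4 of 12 pairs were above 0.1, and the numbers did not pair the libraries. The closest 2 libraries of a group differed by a chi-square of 127 per degree of freedom, far more than counting error gives. No library was thus a mere copy or resequencing of another in its group. The value covers pairs within a group, and it cannot tell whether 2 libraries came from the same boar. The circRNA counts were not used here.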

Additional observations from a re-analysis of the deposited data

How the results depend on the processing

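The count of hairpins whose 5p share differed between the groups was 0 under every alternative run: a minimum of 1 or 100 reads, the log2 ratio of the arms, diffSpliceDGE, the replicate block, each library left out, and, chosen after seeing the data, L8 and L12 left out. The differences of some hairpins turned sign around 0. miR-708 was at -0.32 as a log2 ratio and -0.35 with diffSpliceDGE, and without L8 and L12 miR-676 was at -0.0264 and miR-769 at -0.0706 points. With one library left out, the difference ran from -0.0498 to 0.273 points for miR-1306, -0.0138 to 0.0276 for miR-186, -0.78 to 1.71 for miR-545, -0.0174 to 0.0398 for miR-676, -1.26 to 1.75 for miR-708 and -0.0279 to 0.488 for miR-769. The difference of miR-33b was 5.83 points at a minimum of 1 read, beside 22.7, and that of miR-545 was 2.25 at a minimum of 100 reads, beside 0.479. Without L8 and L12, the differences that moved by over 1.5 times and kept their sign fell to 0.934 points for miR-628 and 1.61 for miR-671, and rose to 2.92 for miR-7, 1.52 for miR-532, 1.49 for miR-708, 1.005 for miR-545, 0.279 for miR-1306 and 0.0165 for miR-186. With one library left out, that of miR-574 ran from 0.0766 (without L7) to 0.335 and that of miR-1271 from 0.00722 (without H11) to 0.148 (without L11). The cause was not tested.

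The number of miRNAs called between the groups moved from 36 to 17 with filterByExpr, 16 with DESeq2, 22 without L8 and L12 and 26 (without L12) to 42 with one library left out. With the replicate block it was 9. The numbers do not pair the libraries, 3 of 24 libraries correlated best with their own number, and the block changed no call of a 5p share. The count of member arms called was 1 with DESeq2 (miR-582-5p) and 0 to 1 with one library left out, in 7 of 24 cases 1: miR-582-5p in 6 and miR-885-3p, on its few reads, without H2.

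Arm correlations called were 18 of 50, and 11 without L8 and L12, and for the 11 hairpins 5 and 3. With one library left out these counts ran from 13 to 19 and from 3 (without L12) to 5. The r of miR-1306 was -0.19 without TMM factors. Of the 15 hairpins, 10 had a 5p share above 50% from pooled reads, against 9 from the mean share. Depth limited miR-33b, miR-708 and miR-885 and the minor arms of miR-676 and miR-1271.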
